A study of Mus musculus with 5 samples.

Results

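Ntng1, Ntng2, Lrrc4c and Lrrc4 are 4 of the 14715 genes measured in single spiral ganglion neurons, the sensory neurons that carry sound information from the hair cells of the cochlea to the brainstem. They were selected on 2 grounds: they are a family of ligands and partners, and the measured Ntng1 levels of these cells were known to differ between genotypes, so their levels are given as a description. All 4 were measured. A level is the number of UMIs (counted RNA molecules) of a gene per 10000 UMIs of a cell, averaged over the cells of a group.

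Ntng1 and Ntng2 encode netrin-G1 and netrin-G2, which resemble the secreted netrins but are held on the axon surface by a lipid anchor. Each binds one leucine-rich repeat protein on the facing membrane, netrin-G1 the product of Lrrc4c and netrin-G2 the product of Lrrc4. These pairs are known from mouse brain for marking particular stretches of a dendrite, and they do not use the receptors of the secreted netrins.

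The study set Runx1 conditional knockout (CKO) neurons against control neurons of the mouse cochlea at postnatal days 30 to 33, from both sexes. CKO animals carried bhlhb5-Cre/+, Ai14/+ and Runx1F/F (3 samples), and control animals carried bhlhb5-Cre/+ and Ai14/+ without the floxed allele (2 samples). Both therefore carry the Cre and the red reporter, and neurons were sorted for the reporter, so only cells with a history of bhlhb5-Cre activity entered and the removal of Runx1 is set by that driver. RNA was read from the 3' end with a 10x Genomics assay. RUNX1 is a transcription factor of the Runt family.

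The deposited cells comprised 884 CKO and 1070 control neurons with 10379 to 100856 UMIs each, and the median was 44120.5 UMIs in CKO and 38085 in control neurons. The deposited record gives the genotype of a cell and not its sample, so each genotype was 1 pool, cells were not taken as replicates, and no test between groups was possible. The columns run in 5 stretches of alphabetical barcodes, which no label ties to a sample: 1, 3 and 4 hold CKO cells and 2 and 5 control cells. Values by stretch show how even a pool is. One barcode occurs in both genotypes. Intervals in parentheses are exact 95% intervals of a ratio of summed UMIs and cover counting error only. In pooled groups, fewer cells of a kind and less RNA per cell cannot be told apart unless the classes are separated.

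Neurons were classed in order: type II with Dupd1 at 1 or more, then type Ic with Lypd1 at 3 or more, then type Ia with Calb2 at 150 or more, and the rest type Ib. Type I neurons contact inner hair cells and type II neurons outer hair cells. The rule gave 384 CKO and 242 control type Ia neurons, 216 and 395 type Ib, 132 and 314 type Ic, and 152 and 119 type II. Markers that the rule did not use followed the names in part in control neurons: Ttn was highest in type Ib (1.27), Pou4f1 in type Ic (1.17), and Th in type II (5.09), while Rxrg was higher in type Ia (0.507) than in type Ib (0.113) and type Ic (0.0071). Other markers did not follow them. Rxrg (0.565) and Pcdh20 were as high or higher in type II, Pcdh20 at 2.25 there and 0.438 in type Ia, and the type II marker Smad3 was 0 in type II and at most 0.0175 in the type I classes. Calb1, a type Ib marker, averaged 1.90 in CKO type Ia and 2.56 in CKO type Ib neurons, against 0.283 and 1.31 in control. It thus separated these classes less in CKO cells. The type Ia marker B3gat1 averaged 2.11, 1.48 and 1.04 in CKO types Ia, Ib and Ic, against 2.02, 0.693 and 0.0820 in control. The type Ic marker Pou4f1 averaged 0.0801 in CKO and 0.00851 in control type Ia neurons. Rxrg kept its order, at 0.466, 0.114 and 0.0393 in CKO types Ia, Ib and Ic. Whether a class name marks the same kind of cell in both genotypes was not tested. All 10 glial markers were detected in the neurons, and their summed level averaged 24.4 in CKO and 27.3 in control cells.

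Runx1 RNA averaged 2.005, 1.46 and 1.44 in CKO stretches 1, 3 and 4, against 1.34 and 1.14 in control stretches 2 and 5. The targeted gene was thus higher in each CKO stretch than in either control stretch. The labels do not name the removed part of Runx1, and 3' tags can come from a transcript that lacks an inner exon, so its level is no check of the deletion. Stretch 4 stood apart from the other CKO stretches: type Ia made up 12.1% of its neurons, against 47.0% in stretch 1 and 53.2% in stretch 3, with 10.8% in control stretch 2 and 32.3% in control stretch 5. Of its 19 type Ia neurons, 0 held Runx1 RNA at 0.5 or more, where 3 cells would be 15.8%. The stretch is labelled CKO but lay nearer the control stretches in both measures, and whether its genotype label is right was not tested. Every pooled CKO value includes it. The Ntng1 ratios between genotypes, over all neurons and by class, are also given without it, apart from a ratio weighted by control class shares.

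The sequences shown are stretches of the Ntng1 and Lrrc4c promoters, printed because these were the members whose windows held the searched letters. The core letters that Runx proteins bind, TGTGGT or TGCGGT, were searched on both strands in windows of 300 bases at each gene's start (RefSeq, GRCm38.p6). The windows of Ntng1 and Lrrc4c held 1 match each (neither overlaps another match), those of Ntng2 and Lrrc4 held 0, and 22.4% of 32851 windows of all genes held at least 1. Capitals mark the match, which reads TGCGGT on the opposite strand.
Ntng1, chr3:110143592-110143621, minus strand: gggtagcggcgaACCGCAatcccgaagcat
Lrrc4c, chr2:96318041-96318070, plus strand: cctgggaaggtaACCGCAagccataccatc
The Ntng1 match is separated by 131 bases from the start used for its window, and the printed stretch overlaps an exon of another annotated transcript. The Lrrc4c match is separated by 110 bases from its start. Each gene has several annotated starts, and 1 window was searched for each. A match is a description of letters and not a binding site.

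Ntng1 spans chr3:109780040-110144011 on the minus strand. Across all neurons it averaged 1.07 in CKO and 1.71 in control cells, a log2 ratio (of levels plus 0.1) of -0.63 and a UMI ratio of 0.623 (0.599 to 0.648). By stretch it averaged 0.895, 0.842 and 2.03 in CKO stretches 1, 3 and 4, against 1.87 and 1.58 in control stretches 2 and 5. The groups overlapped: CKO stretches 1 and 3 lay under both control stretches and CKO stretch 4 above both.

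Of the 4 members, 1, Ntng1, reached the minimum level of 0.5 in either genotype that a comparison across genes required, and it was past 1.5-fold lower in CKO neurons, as were 0.502% of 3784 genes at that level, while 0.529% were past 1.5-fold higher. Without stretch 4 the log2 ratio was -0.90, and without stretch 1, 2 or 3 it was -0.49, -0.52 and -0.43, short of 1.5-fold. Each genotype's class levels were also weighted by the class shares of control neurons. CKO neurons would then average 1.5 against 1.71 in control, a log2 ratio of -0.18. That weighting includes stretch 4 and was not run without it. Leaving stretch 4 out, the log2 ratios were -0.50 in type Ib and -0.58 in type Ic, larger in size than with it. The pooled difference with stretch 4 included was thus smaller when the classes were held at the same shares. The classes were described one by one.

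In neurons that the rule placed in type Ia the difference ran the other way. Ntng1 averaged 0.558 in CKO and 0.0932 in control type Ia neurons, a log2 ratio of 1.77 and a UMI ratio of 6.32 (5.12 to 7.87) from 1019 and 96 UMIs. By stretch the level was 0.612, 0.563 and 0.0259 in CKO stretches 1, 3 and 4, against 0.164 and 0.0738 in control stretches 2 and 5. CKO stretches 1 and 3 lay above both control stretches and CKO stretch 4, with 19 cells, below both. Without stretch 4 the log2 ratio was 1.83. In this comparison 0.443% of 3611 genes were past 1.5-fold higher and 0.305% lower, and 3 had a higher log2 ratio than Ntng1, namely Runx1, Calb1 and 1700026D08Rik. With every cell reduced to 10000 UMIs, 30.7% of CKO (26.1 to 35.6%) and 5.37% of control type Ia neurons (2.89 to 9.01%) held an Ntng1 UMI, against 45.1% of CKO and 17.4% of control ones without this reduction. Median depths were 50506 UMIs in CKO and 48726 UMIs in control type Ia neurons. As a measure of stray RNA, the type II genes Th and Plk5 gave 1 UMI each in all CKO type Ia neurons and 0 each in control ones. The summed glial level averaged 20.5 in CKO and 24.2 in control type Ia neurons, and in cells with a sum under 5 Ntng1 averaged 0.683 in CKO and 0.113 in control.

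In types Ib and Ic Ntng1 was abundant in both genotypes. It averaged 1.92 in CKO and 2.36 in control type Ib neurons (log2 -0.29), and 2.21 in CKO and 2.69 in control type Ic neurons (log2 -0.27). By stretch, type Ib levels were 1.43, 1.87 and 2.65 in CKO stretches 1, 3 and 4, against 2.25 and 2.45 in control stretches 2 and 5. Type Ic levels were 1.79, 1.73 and 2.82 in the CKO stretches in the same order, against 2.63 and 2.77 in the control stretches. In both classes stretches 1 and 3 lay under both control stretches and stretch 4 above both, so the groups overlapped. Without stretch 4 the log2 ratios were -0.50 in type Ib and -0.58 in type Ic, and without stretch 1 they were -0.09 and -0.13. Ntng1 was short of 1.5-fold lower in both classes, where 0.473% of 3805 genes in type Ib and 0.39% of 3845 in type Ic were past it. In type II neurons Ntng1 averaged 0.194 in CKO and 0.279 in control cells, with 0.216, 0.183 and 0.176 in CKO stretches against 0.243 and 0.334 in control stretches. All CKO stretches lay under the control ones there, on 92 and 86 UMIs and a UMI ratio of 0.782 whose interval (0.577 to 1.06) includes 1. Without stretch 4 the log2 ratio was -0.35. Of the 92 CKO UMIs, 20 came from 2 cells that held Runx1 RNA and also passed the type Ia or Ic limit. Their median depth was 71923 UMIs, against 27019 in the other 150 cells, which averaged 0.179, and whether they are doublets was not tested. Summed over those 150 cells, the rate was 0.178 UMIs per 10000, with an exact interval of the rate from 0.1396 to 0.2247. In control type II cells it was 0.281, with an interval from 0.2251 to 0.3475.

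**Figure D1:**
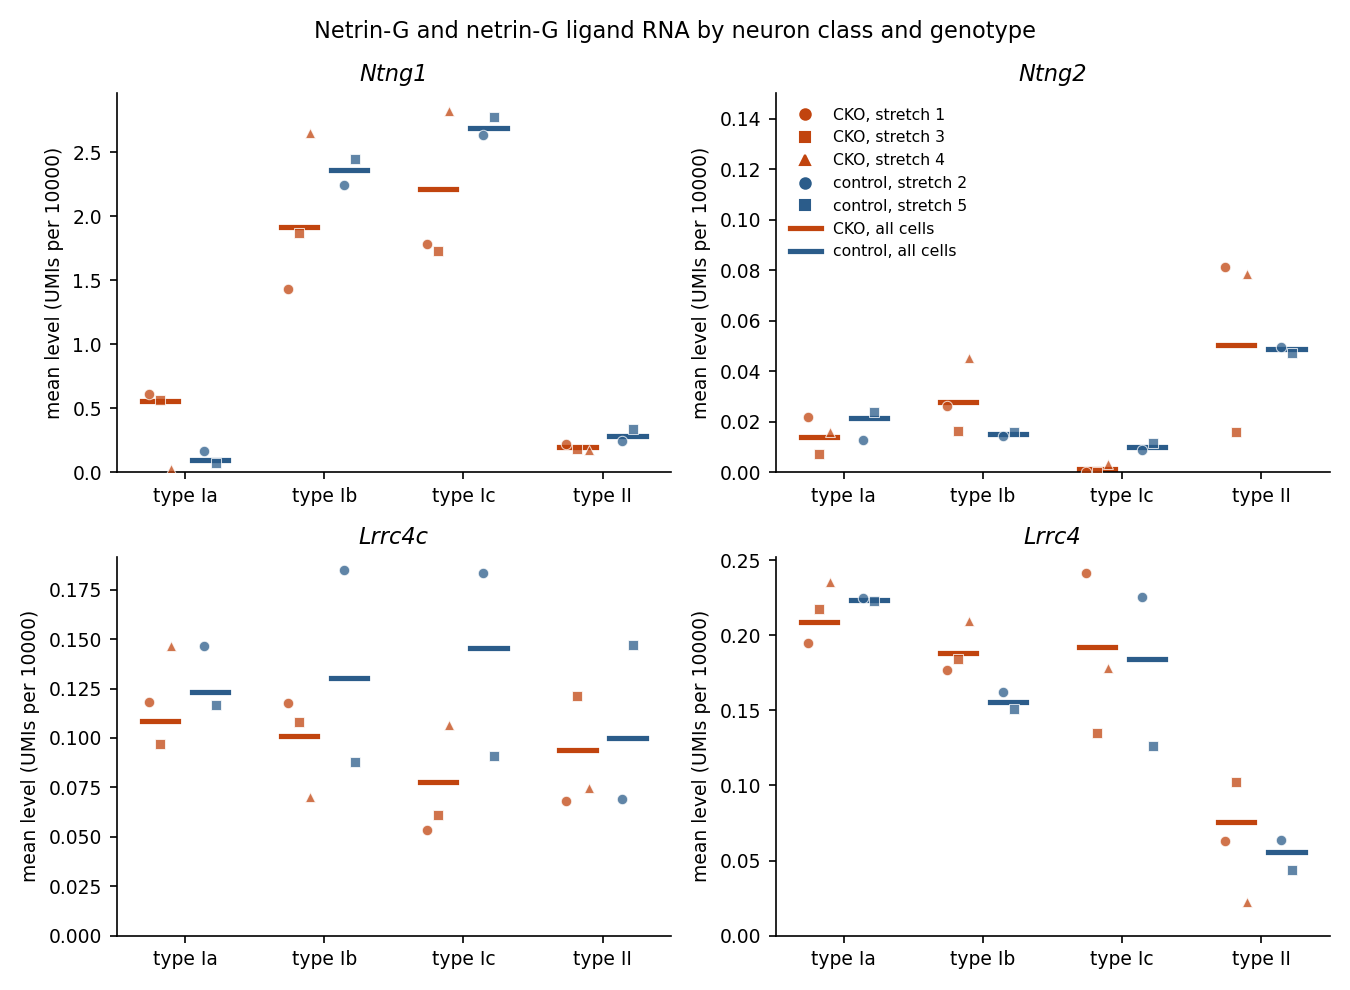
Mean level (UMIs per 10000) of the 4 members in each neuron class, CKO left of control, with its own linear axis per gene. Points are column stretches and lines are all cells of a genotype. Ntng1 is low in control type Ia (0.0932) and higher in CKO type Ia (0.558) except in stretch 4, while the other members show no such step.

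The order of the classes also differed. In control neurons Ntng1 ran from type Ic through type Ib and type II to type Ia, and no neighbours overlapped by stretch. In CKO neurons it ran from type Ic through type Ib and type Ia to type II, where the neighbours Ic and Ib overlapped by stretch, Ib and Ia did not, and Ia and II did. Type Ib over type Ia gave a log2 ratio of 3.67 in control neurons, with 0 of 3757 genes at a higher ratio and 2.18% past 1.5-fold higher. Type Ic over type Ia gave 3.85 in control neurons, where only Lypd1, which sets the class, had a higher ratio and 4.48% of 3814 genes were past 1.5-fold. In CKO neurons the same ratios were 1.62 and 1.81, where 1.53% of 3718 and 3.96% of 3789 genes were past 1.5-fold higher. Among CKO genes, Btbd9, Ttn, Apoe and Ptn exceeded Ntng1 between type Ib and type Ia.

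Within type Ia, Ntng1 went with Runx1 RNA in both genotypes. Cells with Runx1 at 0.5 or more numbered 268 of 384 in CKO (69.8%) and 31 of 242 in control (12.8%). In CKO type Ia neurons Ntng1 averaged 0.778 with and 0.0485 without Runx1 RNA, a log2 ratio of 2.56 (2.52 without stretch 4) and a UMI ratio of 16.2 (11.0 to 24.7). In control type Ia neurons it averaged 0.525 with and 0.0297 without, a log2 ratio of 2.27 and a UMI ratio of 16.2 (10.4 to 25.7). The share past 1.5-fold higher with Runx1 RNA was 0.364% of 3573 genes in CKO and 0.352% of 3696 in control type Ia neurons. Besides Runx1, which defines the split, Calb1 alone had a higher ratio than Ntng1 in CKO, and no gene did in control. After reduction to 10000 UMIs, 42.5% of CKO cells with Runx1 RNA and 3.45% of those without held an Ntng1 UMI, and 25.8% and 2.37% did in control. Median depth was 50869.5 UMIs with and 49427.5 without in CKO, and 42794 with and 49580 without in control.

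By stretch, Ntng1 with Runx1 RNA averaged 0.764 and 0.792 in CKO stretches 1 and 3, against 0.714 (9 cells) and 0.447 (22 cells) in control stretches 2 and 5. Without Runx1 RNA it averaged 0.0161, 0.0727 and 0.0259 in CKO stretches 1, 3 and 4, against 0.0487 and 0.0249 in control stretches 2 and 5. Every stretch that held both kinds of cell was higher with Runx1 RNA, and the 2 kinds did not overlap. Among cells without Runx1 RNA the genotypes overlapped, and CKO over control gave a UMI ratio of 1.5 (0.863 to 2.60). Among cells with it the ratio was 1.5 (1.17 to 1.96), and both CKO stretches were above both control ones. The UMI ratio between genotypes was therefore smaller on either side of the Runx1 limit than in the pooled type Ia class, where it was 6.32. The limit did not match the cells for Runx1 level. Those with Runx1 RNA averaged 2.32 of it in CKO and 1.11 in control type Ia neurons.

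The levels also followed the amount of Runx1 RNA, in steps chosen after the data were seen. In CKO type Ia neurons Ntng1 averaged 0.0122 in 66 cells with no Runx1 UMI, 0.0963 in 50 cells below 0.5, and 0.174 in 33 cells from 0.5 to 1. It averaged 0.539 in 80 cells from 1 to 2, 0.920 in 131 cells from 2 to 4 and 1.63 in 24 cells at 4 or more. In control type Ia neurons it averaged 0.0235 in 136 cells with no Runx1 UMI, 0.0411 in 75 cells below 0.5, 0.139 in 20 cells from 0.5 to 1, 1.36 in 7 cells from 1 to 2 and 0.988 in 4 cells from 2 to 4. In CKO cells Ntng1 was higher at each step, and the last 2 control steps rest on 11 cells in all. The 2 RNAs come from the same cell libraries and share their depth, and no cause was tested.

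Outside type Ia the pooled ratios were smaller, and in type Ib they rested on few cells. In type Ib Ntng1 averaged 1.99 with and 0.895 without Runx1 RNA in CKO cells, and 2.5 with and 1.08 without in control cells, where 15 CKO and 40 control cells lacked it. The log2 ratios were 1.07 in CKO and 1.15 in control type Ib neurons. Without stretch 4 the CKO ratio was 2.52, close to that of type Ia, and without stretch 1 it was 0.27. The cells without Runx1 RNA behind the 2.52 were 9 of stretch 1 with 4 Ntng1 UMIs and 2 of stretch 3 with 0. The control ratio was 1.76 without stretch 2 and 0.54 without stretch 5. Type Ib cells without Runx1 RNA were shallower: 24915 UMIs at the median without against 42652 with in CKO, and 27660.5 against 38130 in control. The 10 CKO and 18 control type Ib cells with no Runx1 UMI averaged 0.386 and 0.226, at medians of 21044 and 17495 UMIs. In type Ic Ntng1 averaged 2.21 with and 2.20 without in CKO cells (5 without), and 2.71 with and 2.32 without in control cells (17 without). Type Ic neurons thus held much Ntng1 RNA with or without detected Runx1 RNA.

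**Figure D2:**
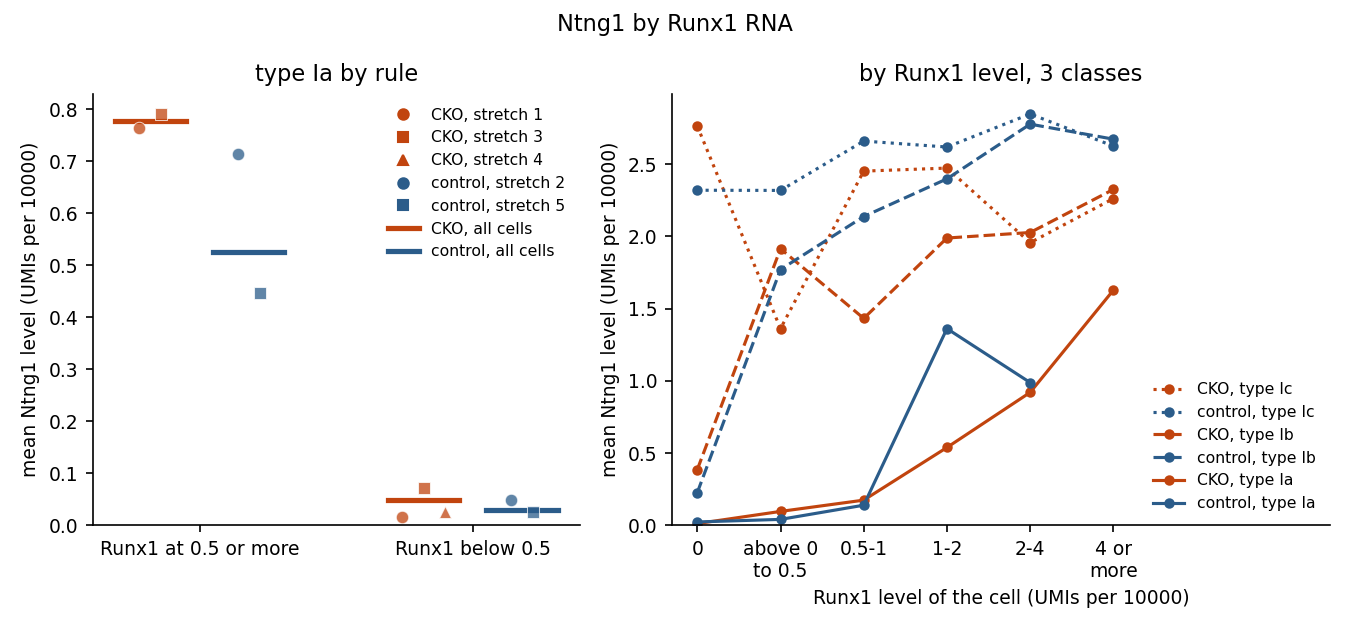
Left, mean Ntng1 level in type Ia neurons with Runx1 at 0.5 or more and below, CKO left of control, with points for stretches and lines for all cells. Right, mean Ntng1 level by Runx1 level of the cell in types Ic, Ib and Ia. The CKO type Ia line goes up at every step, to 1.63, the control line goes up to 1.36 and is at 0.988 in its last step (4 cells), and the type Ic lines start near 2 or above at a Runx1 level of 0.

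Because Calb2 sets the type Ia rule, Ntng1 was also read along Calb2 in all type I neurons. In CKO cells it averaged 2.37 where Calb2 was below 10, 2.52 from 10 to 50, 1.89 from 50 to 100 and 1.44 from 100 to 150, then 1.02 from 150 to 200, 0.456 from 200 to 300 and 0.0244 at 300 or more. In control cells it averaged 2.80, 2.62, 2.19 and 1.74 in the 4 bins below 150, then 0.303, 0.0380 and 0.0238 in the bins above. From the bin of 10 to 50 upward, Ntng1 thus went down along Calb2 in both genotypes, with a step in control neurons at the type Ia border and a slope in CKO neurons. The bins differ in class: below 10, 4 of 79 CKO and 8 of 215 control cells were type Ib and the others type Ic. Just outside the border, type Ib cells from 100 to 150 averaged 1.42 in CKO and 1.74 in control.

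The stretches differed in this pattern. From 150 to 200, Ntng1 averaged 1.07 and 1.04 in CKO stretches 1 and 3 and 0 in the 3 cells of stretch 4, against 0.395 and 0.254 in control stretches 2 and 5. From 200 to 300 it averaged 0.523, 0.440 and 0.0334 in CKO stretches 1, 3 and 4, against 0.0524 and 0.0350 in control stretches 2 and 5. Below 10 it averaged 1.42, 2.07 and 2.86 in CKO stretches 1, 3 and 4, against 2.72 and 2.9 in control stretches 2 and 5. Stretches 1 and 3 were above both control stretches from 150 to 300 and under both below 10, and stretch 4 lay within the control range below 10 and just under it from 200 to 300. At 300 or more all stretches were low, with 0.0323, 0.0124 and 0.0263 in CKO stretches 1, 3 and 4, against 0 and 0.0311 in control stretches 2 and 5, and the groups overlapped.

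Within the Calb2 bins from 150 to 300 the split by Runx1 RNA remained. From 150 to 200, CKO cells averaged 1.17 with and 0.0300 without Runx1 RNA, and control cells 0.902 with (15 cells) and 0.0600 without. From 200 to 300, CKO cells averaged 0.635 with and 0.0662 without, and control cells 0.182 with (15 cells) and 0.0230 without. At 300 or more all 4 groups were low, at 0.0431 with and 0.0127 without in CKO cells and at 0 (1 cell) with and 0.0247 without in control cells. High Ntng1 in type Ia therefore went with both Runx1 RNA and lower Calb2, and the highest Calb2 neurons had little Ntng1 with or without Runx1 RNA. Calb1, which encodes a calcium-binding protein, averaged 2.58 with and 0.319 without Runx1 RNA in CKO type Ia neurons, and 0.722 with and 0.219 without in control.

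**Figure D3:**
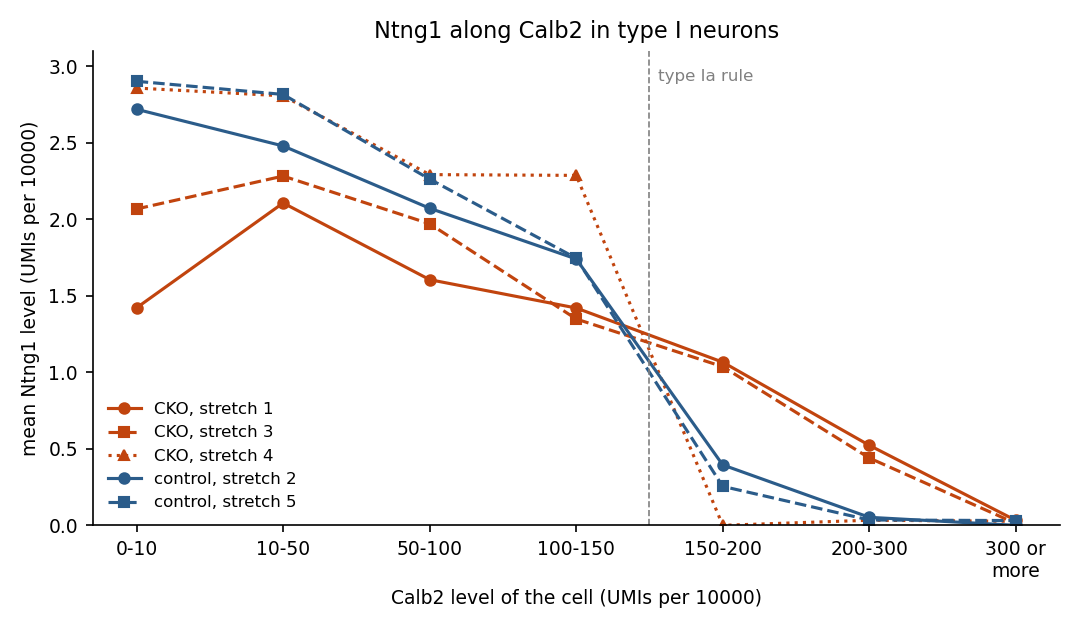
Mean Ntng1 level (UMIs per 10000) in bins of Calb2 in type I neurons, 1 line per column stretch, with the type Ia border at 150 dashed. Between 150 and 200, CKO stretches 1 and 3 are near 1 (1.07 and 1.04), and control stretches 2 and 5 are at 0.395 and 0.254.

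Ntng2, the other netrin-G gene, lies at chr2:29194541-29253005 on the minus strand and was rare throughout, with 72 UMIs in CKO and 74 in control neurons. The gene 6530402F18Rik overlaps Ntng2 on the same strand, and the effect of this overlap on the Ntng2 count was not tested. Ntng2 averaged 0.0218 in CKO and 0.0187 in control cells, a UMI ratio of 1.06 (0.754 to 1.48). By stretch it averaged 0.0295, 0.0102 and 0.0316 in CKO stretches 1, 3 and 4, against 0.0172 and 0.0199 in control stretches 2 and 5. The groups overlapped. Type II had the highest level in both genotypes, 0.0503 in CKO and 0.0487 in control cells, and type I over type II gave UMI ratios of 0.285 (0.170 to 0.495) in CKO and 0.319 (0.179 to 0.606) in control. CKO stretch 3, at 0.0160 on 3 UMIs, lay under the other 4 stretches in type II. Type Ic had 1 UMI in 132 CKO and 13 in 314 control cells. In type Ic, the class with the most Ntng1, the Ntng2 mean was at its lowest in both genotypes. In control neurons the UMI ratio was 0.775 (0.356 to 1.62) over type Ib and 0.504 (0.237 to 1.02) over type Ia. Both intervals include 1. In CKO neurons the ratios were 0.0669 (0.00162 to 0.414) and 0.122 (0.00298 to 0.741), on 1 type Ic UMI. No difference between genotypes in Ntng2 was detectable at this depth.

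Lrrc4c, which encodes the partner of netrin-G1, spans chr2:96318169-97631666 on the plus strand. Gm17075, Gm17076, Gm22957 and Gm22313 overlap Lrrc4c on the same strand, and the effect of this overlap on its count was not tested. Lrrc4c averaged 0.0997 in CKO and 0.130 in control neurons, a log2 ratio of -0.20 and a UMI ratio of 0.809 (0.706 to 0.926). By stretch it averaged 0.101, 0.101 and 0.0929 in CKO stretches 1, 3 and 4, against 0.163 and 0.103 in control stretches 2 and 5. Control stretch 2 stood apart and control stretch 5 was level with the CKO stretches. Without stretch 2 the log2 ratio was -0.02. By class, the lowest ratio was in type Ic, 0.0776 in CKO and 0.145 in control cells, with a UMI ratio of 0.513 (0.356 to 0.723). There CKO stretches 1, 3 and 4 gave 0.0537, 0.0610 and 0.106, against 0.184 and 0.0909 in control stretches 2 and 5, and the groups overlapped.

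Lrrc4c did not follow the pattern of Ntng1. Across types Ia, Ib and II its class means lay between 0.0939 and 0.109 in CKO and between 0.10002 and 0.130 in control neurons. In type Ia it averaged 0.102 with and 0.124 without Runx1 RNA in CKO cells, a UMI ratio of 0.803 (0.600 to 1.08), and 0.0913 with and 0.128 without in control cells, a ratio of 0.803 (0.416 to 1.42). In type Ib it averaged 0.0883 with and 0.273 without Runx1 RNA in CKO cells (17 UMIs in 15 cells without), and 0.124 with and 0.187 without in control. Its levels along Calb2 stayed between 0.0724 and 0.131 in CKO and between 0.0853 and 0.150 in control bins. After reduction to 10000 UMIs, 9.42% of CKO cells with an Ntng1 UMI and 10.6% of those without held a Lrrc4c UMI, and 10.3% and 11.5% did in control. The intervals of these shares overlap.

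Lrrc4, which encodes the partner of netrin-G2, lies at chr6:28661831-28831747 on the minus strand, inside the span of Snd1 on the opposite strand, and its counts assume strand-aware counting, which no source used here states. It averaged 0.178 in CKO and 0.168 in control neurons, a UMI ratio of 1.08 (0.971 to 1.20). By stretch it averaged 0.176, 0.183 and 0.174 in CKO stretches 1, 3 and 4, against 0.178 and 0.160 in control stretches 2 and 5. The groups overlapped and the stretches were even. The main difference lay between types I and II. Type I averaged 0.2 and type II 0.0755 in CKO, with a UMI ratio of 2.56 (1.79 to 3.77). In control type I averaged 0.182 and type II 0.0559, with a ratio of 2.86 (1.81 to 4.77). Within type I, control UMI ratios over type Ia were 0.669 (0.5555 to 0.806) in type Ib and 0.776 (0.641 to 0.938) in type Ic. The CKO ratios were 0.866 (0.714 to 1.05) and 0.858 (0.684 to 1.07), and both intervals include 1. Type II levels by stretch, from 0.0224 to 0.103, did not overlap those of any type I class, from 0.126 to 0.241. In type Ia Lrrc4 averaged 0.202 with and 0.225 without Runx1 RNA in CKO cells, and 0.197 with and 0.227 without in control.

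Taking ligands and partners as kinds, again at 10000 UMIs per cell, 31.8% of CKO and 7.02% of control type Ia neurons held a netrin-G UMI, and 28.6% and 27.3% held a UMI of Lrrc4c or Lrrc4. Both kinds were found together in 9.90% of CKO (7.10 to 13.3%) and 0.826% of control type Ia neurons (0.1 to 2.95%, from 2 cells). A cell with both kinds need not hold a binding pair. Of 118 CKO type Ia cells with an Ntng1 UMI, 14 held a Lrrc4c UMI and 25 a Lrrc4 UMI. Type Ic neurons with both kinds made up 17.4% of CKO and 22.9% of control cells, and type II neurons with both 2.63% and 4.2%. The share with a partner UMI was nearly the same in CKO and control type Ia, and the share with a netrin-G UMI was not. Shares count detected UMIs, not cells that express a gene.

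A list of 43 related genes, made for the netrin-G partners, secreted netrins, netrin receptors and other leucine-rich repeat synapse proteins, was read beside the members. Of these, 41 were in the matrix and 13 reached a level of 0.2 in either genotype. None of the 13 was past 1.5-fold either way across all neurons, where 26 of 6678 genes at that level were higher and 34 lower, and their median log2 ratio was -0.16, against -0.03 over all those genes.

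Among the netrin-G partners, 6 of 10 reached that level. Lrrc4b, which encodes the third protein of the Lrrc4 family, averaged 0.495 in CKO and 0.628 in control neurons (log2 -0.29). Every CKO stretch (0.414 to 0.564) lay under both control stretches (0.602 and 0.649). By class the Lrrc4b log2 ratio was -0.14 in type Ia, -0.13 in Ib, -0.38 in Ic and -0.21 in type II. Its partners are the LAR-type receptor phosphatases. Ptprs averaged 1.499 in CKO and 1.99 in control neurons (log2 -0.38). Again every CKO stretch (1.38 to 1.58) lay under both control stretches (2.01 and 1.97). The share of all genes whose stretches separate as those of Lrrc4b and Ptprs did is not given here. By class the Ptprs log2 ratio was -0.22 in type Ia, -0.31 in Ib, -0.18 in Ic and -0.08 in type II. Each was smaller in size than the pooled ratio. Ptprf averaged 1.98 in CKO and 2.24 in control neurons (log2 -0.17), and its stretches overlapped.

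Ptprd, of the same phosphatase family, ran the other way, at 0.233 in CKO and 0.138 in control neurons (log2 0.49). Ptprd had a UMI ratio of 1.64 (1.47 to 1.84), past 1.5-fold, while its log2 ratio, with 0.1 added to each level, was short of it. Its CKO stretches 1, 3 and 4 gave 0.276, 0.228 and 0.144, against 0.115 and 0.156 in control stretches 2 and 5, so stretch 4 lay within the control range. By class it averaged 0.175 in CKO and 0.0742 in control type Ib neurons, and 0.154 in CKO and 0.0575 in control type Ic neurons. In type Ia it averaged 0.196 in CKO and 0.198 in control neurons, and in type II 0.475 in CKO and 0.436 in control neurons. The scaffold genes Dlg2 and Dlg4, whose products bind the tails of Lrrc4 family proteins, were at log2 -0.09 and -0.16. None of the 3 detected secreted netrin genes reached 0.2.

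**Figure D4:**
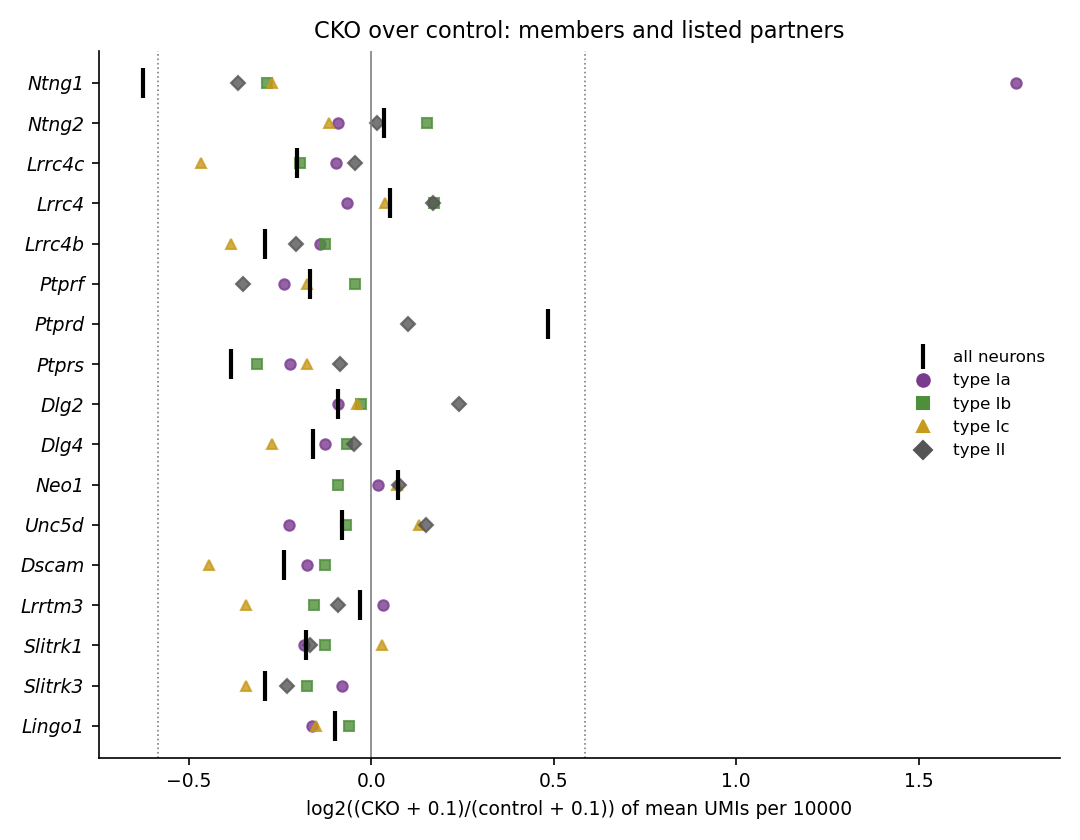
Log2 ratio of CKO over control levels (each plus 0.1) for the members and the 13 listed genes at 0.2 or more, for all neurons (bars) and by class (points, where a listed gene reached 0.2 in that class). Dotted lines mark 1.5-fold. Ntng1 in type Ia, at 1.77, lies apart from every other point.

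The genes most like Ntng1 were found over 19 pools of a stretch and a class with 20 or more cells (11 CKO, 8 control), among 5007 genes. By Pearson's r these were Rab15 (0.94), which encodes a small GTPase, Ostf1 (0.93), the splicing factor gene Rbfox3 (0.92), Rgma (0.90), which encodes a repulsive guidance molecule, and Adgrl2 (0.89), a latrophilin gene. Runx1 stood at rank 21 with 0.85. The pools of a stretch share a library preparation if stretches are libraries, and the pools of a class share the class step, so r is a description. In type Ia Rab15 averaged 0.197 in CKO and 0.111 in control neurons, and Rbfox3 0.221 in CKO and 0.149 in control neurons, both higher in CKO as Ntng1 was, by less.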

How the data were processed

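The authors deposited 1 matrix of values on a natural log scale. Undoing the log gave totals of 100000 per cell, and 100% of nonzero values came back as whole UMIs within 0.01, which were used throughout. Cell Ranger, Seurat and mm10 are named per the submitters' processing notes, with no version. Cell and gene filters are not given in the sources used here. The shallowest cell held 10379 UMIs. Cells were joined to the deposited genotype record by barcode, in the same order in both. Gene spans are from GENCODE on GRCm38.

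Members, lists and classes were chosen with earlier results of these data known, and the column stretches, the Runx1 steps and the split of Calb2 bins by Runx1 were set after seeing the data. Named genes were all members, listed genes at 0.2 or more, the 5 genes most like Ntng1 and genes with a higher ratio than Ntng1. Log2 ratios add 0.1 to each level, and counts of genes needed a level of 0.5 in either group. Thinning drew 10000 UMIs from each cell and left out no cell. No doublet caller was run; 2 CKO and 1 control type II cells also passed a type Ia or Ic cut. The fold rule was also run on simulated cells without classes or stretches, with ratios centred on their median, unlike here. That run cannot show how the rule behaves where classes or stretches differ, and nothing is drawn from it. Shares have exact Clopper-Pearson intervals. Alternatives were leaving out stretches, summed UMIs, other pseudocounts, thinning, glia-poor cells, and other class and Runx1 cuts. Tools were Python 3.11.15, numpy 2.4.6, pandas 2.3.3, scipy 1.17.1 and matplotlib 3.10.9.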

Additional observations from a re-analysis of the deposited data

How the results depend on the processing

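No paired analysis was possible because cells carry a genotype and not a sample, so the shared numbers 4 and 5 could not be used. Values are log2 ratios, and the causes of shifts were not tested. Ntng1 over all neurons was -0.49 with a pseudocount of 0.5, -0.55 in type I cells and -0.18 at control class shares, and ranged from -0.90 to -0.43 with single stretches left out. In type Ia it was 2.46 and 0.83 with pseudocounts of 0.01 and 0.5 and 0.77 with the Calb2 limit at 100, and ranged from 1.32 to 1.92 with single stretches left out. With over without Runx1 RNA, CKO type Ia cells gave 3.75 and 1.22 with those pseudocounts and 3.34 in glia-poor cells, and 2.46 to 2.85 with stretches left out. Control type Ia cells gave 3.75 and 0.95 with those pseudocounts, 3.13 in glia-poor cells, 3.41 and 1.14 with the Calb2 limit at 100 and 200, and 1.19, 3.25 and 1.57 with any Runx1 UMI, a Runx1 limit of 1 and a Runx1 UMI after thinning. With stretches left out they gave 2.13 to 2.45. Within classes, Ntng1 in type Ib was -0.11 with the Calb2 limit at 100 and ranged from -0.50 to -0.09 with stretches left out, and in type Ic it was -0.08 in glia-poor cells and ranged from -0.58 to -0.13. With over without Runx1 RNA, type Ib ranged over all alternatives from 0.27 to 2.52 in CKO and from 0.42 to 2.97 in control. Leaving out stretches gave -0.03 to 0.13 for Ntng2, -0.40 to -0.02 for Lrrc4c and -0.00 to 0.10 for Lrrc4 over all neurons. Genes 1.5-fold apart numbered 39, against 60 with a minimum level of 0.2, 80 with none and 10 at 2-fold.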

Other observations

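Within type Ib, Ntng1 averaged 2.51 in 53 CKO cells with Ttn at 0.5 or more and 1.72 in 163 CKO cells below it, and 2.51 in 211 control cells with Ttn at 0.5 or more and 2.19 in 184 control cells below it. Without stretch 4 the CKO levels were 1.997 in 31 cells with Ttn at 0.5 or more and 1.55 in 126 cells below it. Ttn is a marker of this class, and the near-equal levels of CKO and control cells that held it rest on stretch 4. These are values of 1 pool per genotype, with no test.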
